A study of Xenopus tropicalis with 17 samples.

Results

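Photoreceptor genes were followed in Xenopus tropicalis embryos, a frog model, with and without mutation of sf3b4, which encodes a subunit of the SF3b complex of the spliceosome. The set held 9 genes by name: the rod visual pigment rho, the arrestin sag, the transducin subunit gnat1, the phosphodiesterase subunit pde6b, the calcium sensor gene rcvrn, the transcription factor genes crx and nrl, the retinoid carrier rbp3 and the ciliary gene rp1l1. Of these, 8 had a row of that name among the 26531 genes of the count tables, rcvrn having none, and 7 were among the 17742 genes with enough counts to be tested, pde6b being too low. The genes were chosen by their measured counts in these samples, namely the onset of photoreceptor genes at stage 35 and the counts of rp1l1 in null pools of stage 25. The rise of the set by stage 35 and the early rp1l1 signal in null pools are therefore given as descriptions without a test, and so is the low sag level of stage 35 null pools.

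Wild type, heterozygous and null sf3b4 embryos were collected at stages 15, 25 and 35. The labels do not give the mutation itself, and they list no treatment. RNA came from pools of 5 whole embryos, and each pool gave 1 stranded, polyA-selected library. There were 17 libraries, 2 in each group except stage 15 null embryos, which had 1. Nothing in the labels says whether the pools of a group came from separate matings, so p-values measure only the spread between these pools.

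Vertebrate photoreceptors are the light-sensing neurons of the retina. In rods, light-activated rhodopsin switches on transducin, which activates a phosphodiesterase that lowers cyclic GMP and closes cation channels in the outer segment, and arrestin ends the signal. The homeobox factor Crx and, in mammals, the leucine zipper factor Nrl turn on the genes of this cascade during photoreceptor differentiation. The pineal organ of frogs also holds photoreceptors, and whole-embryo RNA does not separate it from the eye. In such bulk RNA, fewer cells of a type and less RNA per cell cannot be told apart.

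Library totals ran from 11714437 to 21639041 counts. Levels are given in CPM, a gene's counts relative to the scaled library total. Counts of the paired pools of a group differed by more than sampling noise, with chi-square per degree of freedom from 9.48 to 44.1. On the first principal component, which held 70.5% of the variance, the 2 stage 35 null pools lay at 128 and 135, between the stage 25 pools and the other stage 35 pools at 150.3 to 156. At stage 15 the second wild type pool was apart, at -129 where its stage otherwise ran from -166 to -157. The target gene sf3b4 was at 145 ± 1.84 CPM (SD, n = 2) in stage 25 wild type pools and 112 ± 1.89 CPM (n = 2) in null pools. At stage 35 the values were 95.2 ± 16.4 CPM (n = 2) and 77.5 ± 3.78 CPM (n = 2). Heterozygous pools were at 118 ± 10.5 CPM (n = 2) at stage 25 and 78.9 ± 20.3 CPM (n = 2) at stage 35. They overlapped the null pools at both stages, so the level of sf3b4 did not separate null from heterozygous pools there.

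Most of the set came on between stages 25 and 35. Rhodopsin (rho) was between 0.175 and 0.922 CPM in all 6 pools of stage 25. At stage 35 it was at 331 and 522 CPM in wild type pools, 592 and 351 CPM in heterozygous pools and 43.2 and 109 CPM in null pools. The wild type and heterozygous ranges overlapped, and both null pools lay below every other stage 35 pool. In summed, scaled counts the stage 35 level of rho was 780.3 times the stage 25 level in wild type pools (95% counting interval 493 to 1317) and 142 times in null pools (87.3 to 249). These intervals cover counting error only. The null pools of stage 35 thus held far more rho than those of stage 25, and less than the other genotypes.

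**Figure D1:**
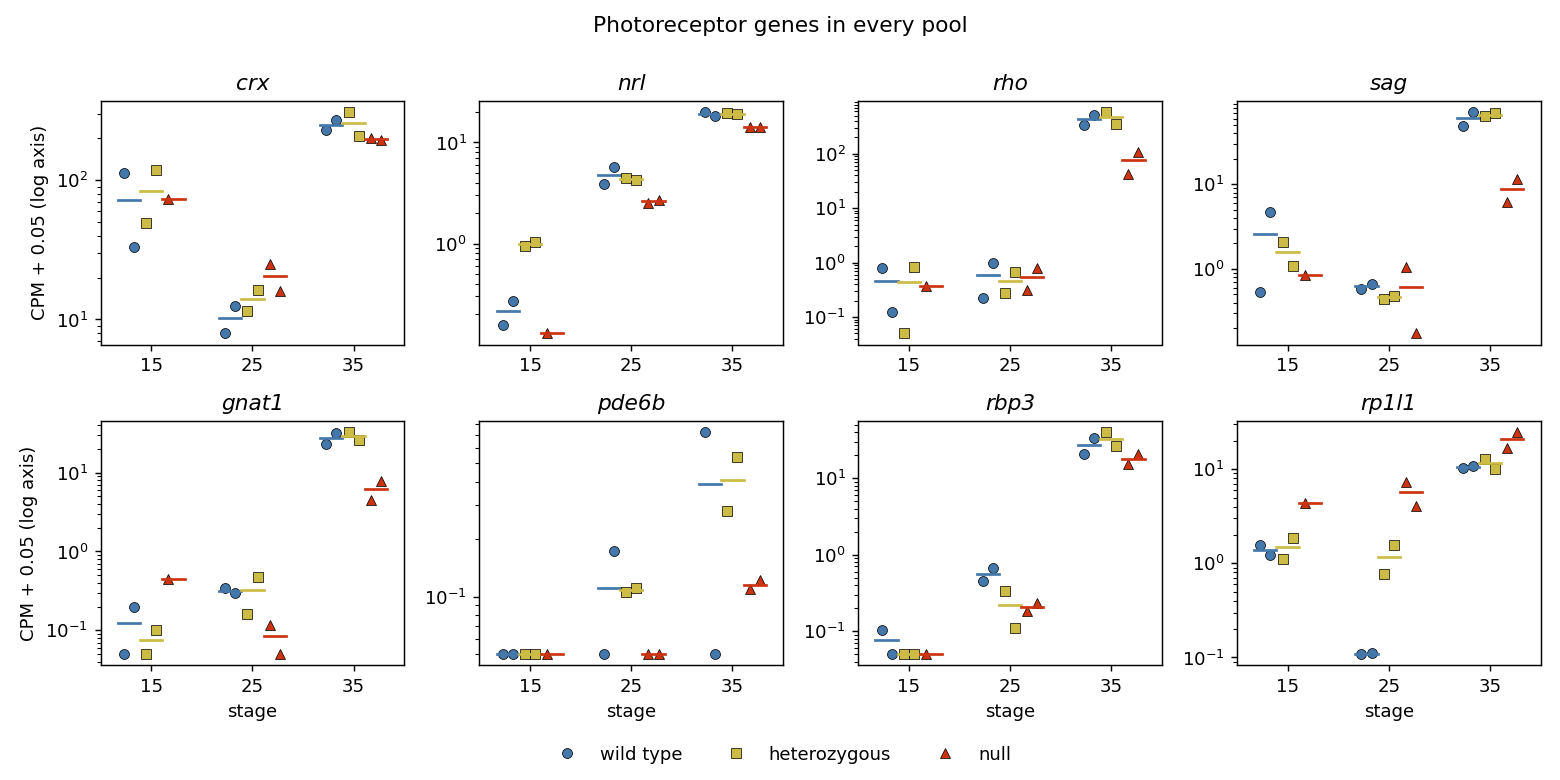
Level of each photoreceptor gene in every pool by stage, in CPM plus 0.05 on a log axis, with 1 point per pool, a line at each group mean, and genotypes marked by colour and shape. The stage 35 null pools of rho, sag and gnat1 lie below all other stage 35 pools. Those of crx, nrl and rbp3 do too, by little for crx and rbp3. The null pools of rp1l1 lie above the others at every stage.

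The arrestin gene sag, whose product quenches activated rhodopsin, was at 0.526 and 0.614 CPM in stage 25 wild type pools. In the null pools of that stage it was at 1.01 and 0.122 CPM, from 15 and 2 counts. At stage 35 sag was at 49.2 and 72.5 CPM in wild type pools, 64.3 and 69.2 CPM in heterozygous pools and 6.19 and 11.4 CPM in null pools. The null pools did not overlap the others, and the stage 35 level was 6.96-fold lower in null than in wild type pools and 7.63-fold lower than in heterozygous pools. Stage 15 pools held 0.485 to 4.61 CPM of sag, the highest in the second wild type pool, which stands apart from its stage.

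The alpha subunit of rod transducin (gnat1) was nearly silent before stage 35. It had 5 and 4 counts in stage 25 wild type pools, 2 and 7 in heterozygous pools and 1 and 0 in null pools. At stage 35 it was at 23.1 and 31.3 CPM in wild type, 32.3 and 25.5 CPM in heterozygous and 4.48 and 7.75 CPM in null pools. As for rho, the 2 null pools were the lowest of the stage and did not overlap the others.

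In the comparison of null with wild type pools at stage 35, edgeR's quasi-likelihood test called 9.75% of all genes, 4.95% lower and 4.8% higher. Of the 6 photoreceptor genes open to a test there, 2 fell and 0 rose. At an unadjusted p under 0.05, rp1l1 was the further gene past the threshold. rho fell 5.60-fold, a log2 fold change of -2.48 ± 0.49 (SE, n = 2 pools a group, edgeR adjusted p = 0.00566). gnat1 fell 4.46-fold, a log2 fold change of -2.16 ± 0.41 (n = 2, edgeR adjusted p = 0.00445). Both calls were lost without the first null pool (edgeR adjusted p = 0.0808 for rho and 0.0755 for gnat1) and without the second wild type pool (0.0554 for each). DESeq2's Wald test did not call rho (adjusted p = 0.170) and called gnat1 (3.59e-06). Of 10 alternative fits, including this one and those without 1 pool, 7 called rho and 8 called gnat1.

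Against heterozygous pools of stage 35, where edgeR called 6.98% of all genes, 3.65% lower and 3.34% higher, the same 2 of 6 photoreceptor genes fell and 0 rose. rho was 6.19-fold lower (log2 fold change -2.63, edgeR adjusted p = 0.00572) and gnat1 was 4.74-fold lower (-2.24, edgeR adjusted p = 0.00510). The comparisons share the null pools. Without the first null pool the edgeR adjusted p was 0.0834 for rho and 0.0850 for gnat1, and without the first heterozygous pool it was 0.0565 and 0.0546. DESeq2's Wald test gave an adjusted p of 0.163 for rho in this comparison. Here too, 7 of the 10 alternative fits called rho and 8 called gnat1.

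**Figure D2:**
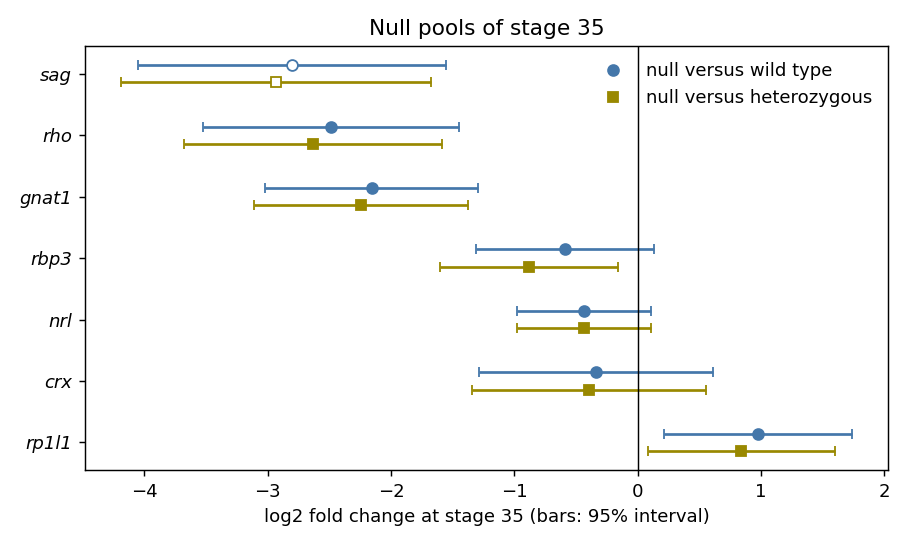
Log2 fold change of each photoreceptor gene in stage 35 null pools against wild type and against heterozygous pools, with 95% intervals from the edgeR fit, where open symbols mark sag, shown without a test. The intervals of rho and gnat1 lie below 0, those of crx and nrl include 0, that of rbp3 includes 0 against wild type and lies below 0 against heterozygous pools, and those of rp1l1 lie above 0 before adjustment over all genes.

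The transcription factor genes did not show a fall of that size. The homeobox factor gene crx, for which the RefSeq table also lists the name otx5, was already abundant early, with 112 and 33.0 CPM in stage 15 wild type pools. At stage 25 it was at 7.89 and 12.5 CPM in wild type, 11.5 and 16.2 CPM in heterozygous and 25.0 and 16 CPM in null pools. The stage 25 null and heterozygous ranges thus overlapped, and the wild type pools lay below the null pools. At stage 35 wild type pools were at 229 and 271 CPM. Heterozygous pools of stage 35 were at 312 and 208 CPM and null pools at 201 and 194 CPM. The null pools were the lowest of the stage, close below the second heterozygous pool. The log2 fold change against wild type was -0.34 (95% interval -1.29 to 0.61, edgeR adjusted p = 0.698), and against heterozygous pools it was -0.39 (-1.35 to 0.56, edgeR adjusted p = 0.673).

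The leucine zipper factor gene nrl carries the synonyms l-maf and XL-maf in the RefSeq table, and Maf genes also act in the lens of other vertebrates. It had 3.80 and 5.71 CPM in stage 25 wild type pools, 4.37 and 4.23 CPM in heterozygous pools and 2.50 and 2.63 CPM in null pools. At stage 35 it was at 20.1 and 18.4 CPM in wild type, 19.4 and 19.1 CPM in heterozygous and 14.3 and 14.2 CPM in null pools. The null pools were the lowest at both stages. The stage 35 difference from wild type was -0.43 on the log2 scale (95% interval -0.97 to 0.11, edgeR adjusted p = 0.313), and from heterozygous pools it was -0.43 (-0.97 to 0.11, edgeR adjusted p = 0.361).

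The interphotoreceptor retinoid carrier rbp3 was at 20.5 and 33.3 CPM in wild type, 39.6 and 26.2 CPM in heterozygous and 15.3 and 20.5 CPM in null pools of stage 35. The higher null pool lay just below the lower wild type pool. The log2 fold change was -0.59 against wild type (95% interval -1.31 to 0.13, edgeR adjusted p = 0.309) and -0.88 against heterozygous pools (-1.60 to -0.16, edgeR adjusted p = 0.145). The phosphodiesterase subunit pde6b, at 10 and 0 counts in stage 35 wild type pools, 3 and 6 in heterozygous and 1 and 1 in null pools, was too low for any comparison.

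For a view that does not rest on library scaling, the other genes were also set against crx within each stage 35 library. The ratios depend on crx, whose own level was lowest in the null pools. For each 100 counts of crx there were 144 and 193 counts of rho in wild type pools, 190 and 169 in heterozygous pools and 21.4 and 56.3 in null pools. The corresponding counts of gnat1 were 10.1 and 11.6, 10.4 and 12.2, and 2.22 and 3.99. Counts of sag were 21.5 and 26.8, 20.6 and 33.2, and 3.07 and 5.85. For these genes the null pools were below every other pool relative to crx as well. The ratio of nrl to crx overlapped between all genotypes, at 6.80 to 8.79 in wild type, 6.21 to 9.19 in heterozygous and 7.11 to 7.30 in null pools. That of rbp3 was 8.97 and 12.3 in wild type, 12.7 and 12.6 in heterozygous and 7.61 and 10.5 in null pools, so that null and wild type pools overlapped and both lay below the heterozygous pools. The ratio of rp1l1 ran the other way, at 4.44 and 3.98 in wild type, 4.15 and 4.83 in heterozygous and 8.28 and 12.6 in null pools. These counts are not scaled by transcript length, so they compare pools and not genes.

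**Figure D3:**
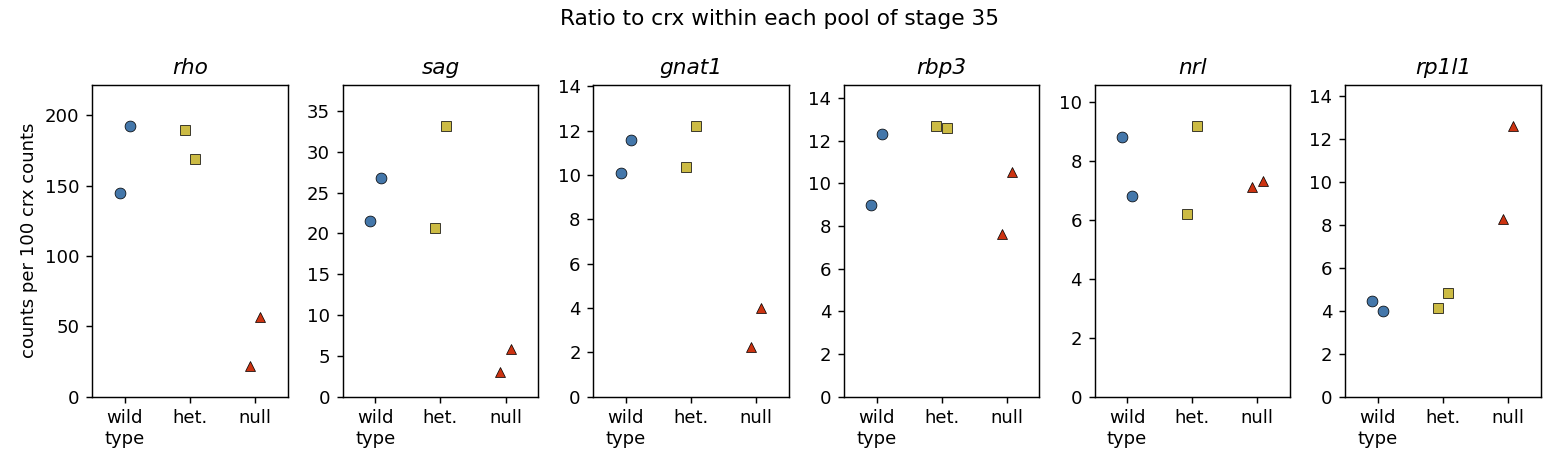
Counts of each gene per 100 counts of crx in every stage 35 pool, on linear axes that start at 0. Null pools lie below the others for rho, sag and gnat1, overlap wild type pools for nrl and rbp3, and lie above all others for rp1l1.

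The gene rp1l1 encodes a relative of the photoreceptor protein RP1, known in mammals from the axoneme of the outer segment. It was above its wild type level in null pools at every stage. In stage 25 wild type pools it had 1 and 1 counts (0.0584 and 0.0614 CPM). Heterozygous pools had 13 and 25 counts (0.728 and 1.53 CPM), and null pools had 107 and 66 counts (7.22 and 4.04 CPM). The 3 genotypes did not overlap, and the heterozygous pools lay between the others. The ratio of scaled counts, null to wild type, was 92.6 with a 95% counting interval of 25.3 to 771. Null to heterozygous it was 4.99 (3.50 to 7.29), and heterozygous to wild type 18.6 (4.80 to 159). These values were part of the reason the gene was chosen and carry no test.

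At stage 15 the wild type pools had 28 and 16 counts of rp1l1 (1.51 and 1.17 CPM), and the heterozygous pools 13 and 35 (1.07 and 1.83 CPM). The single null pool had 54 counts, or 4.27 CPM, with a 95% counting interval of 3.21 to 5.57 CPM. It lay above the 4 other pools of the stage, but without a replicate no test was possible. The wild type pools of stage 25, with 1 count each, were thus below those of stage 15, while the null pools of stage 25 lay just below and above the stage 15 null pool.

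At stage 35 rp1l1 was at 10.2 and 10.8 CPM in wild type pools, 12.9 and 10.1 CPM in heterozygous pools and 16.7 and 24.6 CPM in null pools. Both null pools were above the other 4. The log2 fold change was 0.98 ± 0.36 against wild type (SE, edgeR adjusted p = 0.0998) and 0.84 against heterozygous pools (edgeR adjusted p = 0.185), so neither passed the threshold. A fit to the libraries of stage 35 alone gave adjusted p of 0.0264 and 0.0485. The summed, scaled level at stage 35 was 174 times that of stage 25 in wild type pools (counting interval 47.9 to 1447), 10.4 times in heterozygous pools (7.38 to 15.0) and 3.64 times in null pools (3.07 to 4.34).

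Genes next to rp1l1 were examined in the order of the RefSeq table of the assembly UCB_Xtro_10.0, used here only for names and neighbours. On one side lay sox7, a transcription factor gene, and trnal-cag, a transfer RNA gene with no counts in stage 25 pools. On the other lay msra.1, a methionine sulfoxide reductase gene, and kif13b, a kinesin gene. In null against wild type pools of stage 25, where edgeR called 1.78% of all genes, 0.789% higher and 0.986% lower, none of the neighbours open to a test passed the threshold. The log2 fold changes were -0.09 for sox7 (edgeR adjusted p = 0.895), 0.52 for msra.1 (0.825) and -0.18 for kif13b (0.836). At stage 35 they were -0.06 (edgeR adjusted p = 0.882), -0.02 (0.992) and 0.11 (0.837).

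**Figure D4:**
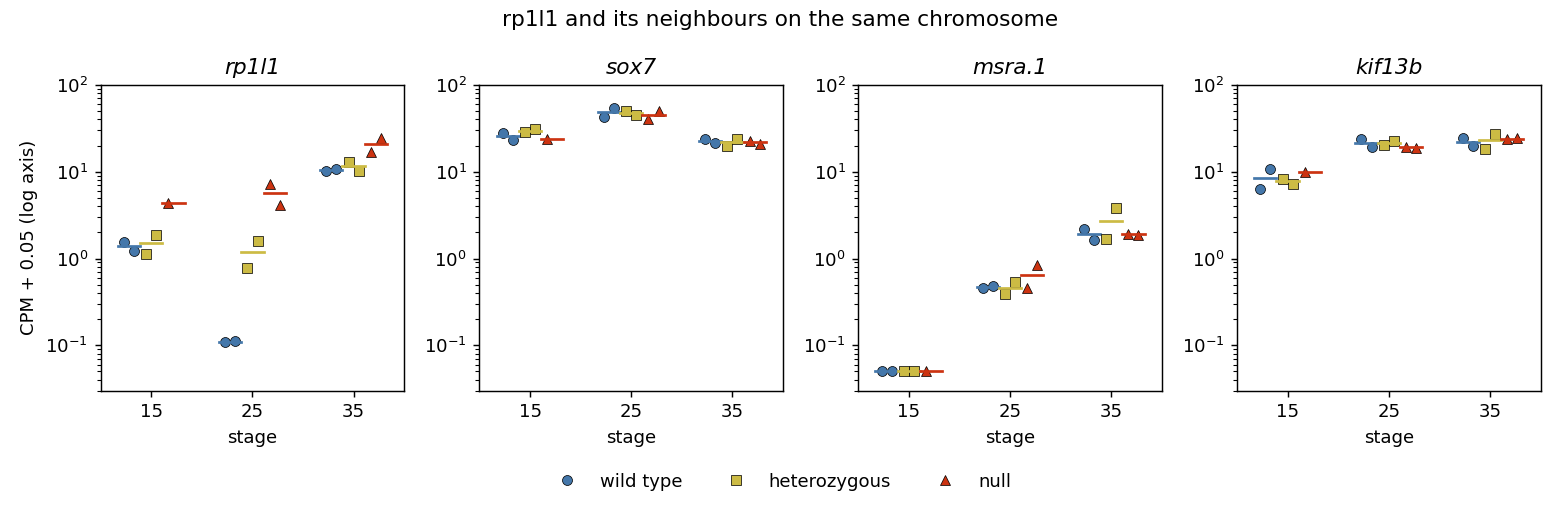
CPM plus 0.05 on a log axis of rp1l1 and its neighbours sox7, msra.1 and kif13b, with 1 point per pool by stage and genotype and a line at each group mean. At stage 25 the genotypes are far apart for rp1l1, while the log2 fold changes of the neighbours are between -0.18 and 0.52.

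The genes whose log2 CPM followed rp1l1 most closely over the 17 libraries were ceacam8l (Pearson r = 0.93), notch4 and nsdhl (0.90 each), and pasd1 and nmt1 (0.88 each). For sag they were kat2b (0.97), adsl, arl3l2, plppr5 and myh6 (0.96 each). These correlations describe libraries that share their stage, and no p is attached. At stage 25 ceacam8l had 7.77 and 6.27 CPM in wild type pools, 11.8 and 11 CPM in heterozygous pools and 14.8 and 10.9 CPM in null pools. notch4 had 4 and 2 counts in wild type, 13 and 13 in heterozygous and 25 and 10 in null pools, so that the wild type pools were lowest and the null and heterozygous pools overlapped. For pasd1 the counts were 0 and 0, 1 and 1, and 11 and 6 in the same order, and the null pools did not overlap the others. nsdhl was at 2.98 and 1.97, 4.65 and 3.80, and 5.67 and 7.83 CPM in that order, also without overlap of the null pools. In the single stage 15 null pool nsdhl was at 7.51 CPM, above the 2.34 to 3.93 CPM of the other pools of the stage. ceacam8l and nmt1 were also highest in that pool, and notch4 and pasd1 were not. All were picked for their likeness to rp1l1 over these same libraries.

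Heterozygous pools were compared with wild type pools at each stage. At stage 35, where edgeR called 0.00564% of all genes, 0 of 7 photoreceptor genes were called, and DESeq2's Wald test also called 0. No member passed an unadjusted p under 0.05. The log2 fold changes were 0.15 for rho (95% interval -0.83 to 1.13), 0.13 for sag (-1.01 to 1.28) and 0.09 for gnat1 (-0.73 to 0.90). At stage 25, with 0% of all genes called by edgeR and 502 at an unadjusted p under 0.05, 0 of 6 members were called by either tool. Summed over pools, rho had 18 counts in wild type and 14 in heterozygous pools, gnat1 9 and 9, and rbp3 17 and 6. These genes passed the count filter by their stage 35 counts. At stage 25 they were too low for the lack of a call to show that they were unchanged.

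At stage 15, with 0% of all genes called by edgeR and 824 at an unadjusted p under 0.05, 0 of 7 members were called by either tool. Summed over pools, gnat1 had 2 counts in wild type and 1 in heterozygous pools, rbp3 1 and 0, and rho 15 and 15. A call was unlikely at such counts, so its absence does not show that these genes were unchanged. nrl was the 1 member at an unadjusted p under 0.05. It had 2 and 3 counts in wild type pools, 11 and 19 in heterozygous pools and 1 in the null pool. Its log2 fold change of 2.55 had an edgeR adjusted p of 0.548, and it was called only without the filter on low counts (2.54, edgeR adjusted p = 0.0457).

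The difference between the null effects at stages 35 and 25 was tested directly, and 0.141% of all genes were called by edgeR, 0.113% higher and 0.0282% lower. Of the 5 members open to this test, 0 were called by edgeR or by DESeq2, and 0 had an unadjusted p under 0.05. Of all 17742 genes tested, 1562 had one. The difference was -2.41 for rho (95% interval -5.11 to 0.30, edgeR adjusted p = 0.621) and -1.34 for crx (-2.75 to 0.07, edgeR adjusted p = 0.593). The wide interval of rho goes with its low counts at stage 25, between 0.175 and 0.922 CPM. At that stage gnat1 had 9 summed counts in wild type and 1 in null pools, and rbp3 17 and 5. For these 3 genes the lack of a call does not show that the null effect was the same at both stages.

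Wider lists of eye genes, compiled with earlier results of these samples known, gave the setting of the set. Of 30 other phototransduction genes, 29 were found and 28 tested. In wild type pools 25 of the 28 rose from stage 25 to stage 35 and 0 fell. Of all genes, 24.7% were called higher, 22.5% lower and 47.2% in either direction. This rise is a description, since the set was chosen for its onset at stage 35 and earlier results were known. At 0 counts were 7 and 4 of the 28 in the stage 25 wild type pools and 0 in those of stage 35. Genes near 0 at stage 25 passed the count filter by other groups, which favours a called rise. In stage 35 null pools 11 of the 28 fell and 1 rose against wild type, beside 4.95% and 4.8% of all genes. Their median log2 fold change was -1.26, beside -0.03 over all genes tested. Against heterozygous pools 10 fell and 0 rose, beside 3.65% and 3.34% of all genes, with a median of -1.27.

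The phototransduction genes that fell belong to cones as well as rods. The long-wavelength cone opsin opn1lw was at 237 and 329 CPM in wild type, 335 and 215 CPM in heterozygous and 33.1 and 67.9 CPM in null pools, a 5.61-fold fall against wild type (log2 fold change -2.49 ± 0.38, edgeR adjusted p = 0.00107). The short-wavelength opsin opn1sw fell 3.02-fold (edgeR adjusted p = 0.00577). Both opsins of the list were thus lower together with rho. Among the transducin subunits, gnat2, the cone alpha subunit, fell 3.64-fold (edgeR adjusted p = 0.00303), gnb3, a beta subunit, 2.27-fold (0.000890), and gngt1, the rod gamma subunit, 2.59-fold (0.00408). The inhibitory phosphodiesterase subunit pde6g fell 4.26-fold (edgeR adjusted p = 0.0102), the cone channel subunit cngb3 4.11-fold (0.0102) and the cone arrestin arr3 2.78-fold (0.0152). DESeq2's Wald test did not call arr3 against wild type (adjusted p = 0.101) or heterozygous pools (adjusted p = 0.0983).

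In this list, gnat2, gnb3 and opn1lw kept their calls against wild type when each stage 35 wild type or null pool was left out in turn. Of these, only opn1lw also did so in the heterozygous comparison. Against wild type, opn1sw, gngt1, pde6g, cngb3 and arr3 lost their calls in 1 to 3 of the 4 fits. The other genes of the list that fell lost theirs in every such fit. The number of phototransduction genes called lower was 3 without the first null pool, 6 without the second, 8 without the first wild type pool and 4 without the second. The 1 gene that rose, the rod channel subunit gene cngb1, was at 19.1 and 19.7 CPM in null pools, 8.04 and 7.38 CPM in heterozygous pools and 4.92 and 5.53 CPM in wild type pools (log2 fold change 1.89, edgeR adjusted p = 0.0275). Its call was lost when any 1 of the 4 pools was left out (edgeR adjusted p from 0.119 to 0.162). It was named after its value was seen. The gene rcvrn.2, which the RefSeq table lists as recoverin, was at 201 and 269 CPM in wild type, 259 and 205 CPM in heterozygous and 130 and 153 CPM in null pools. Its log2 fold change against wild type was -0.73 (edgeR adjusted p = 0.182).

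**Figure D5:**
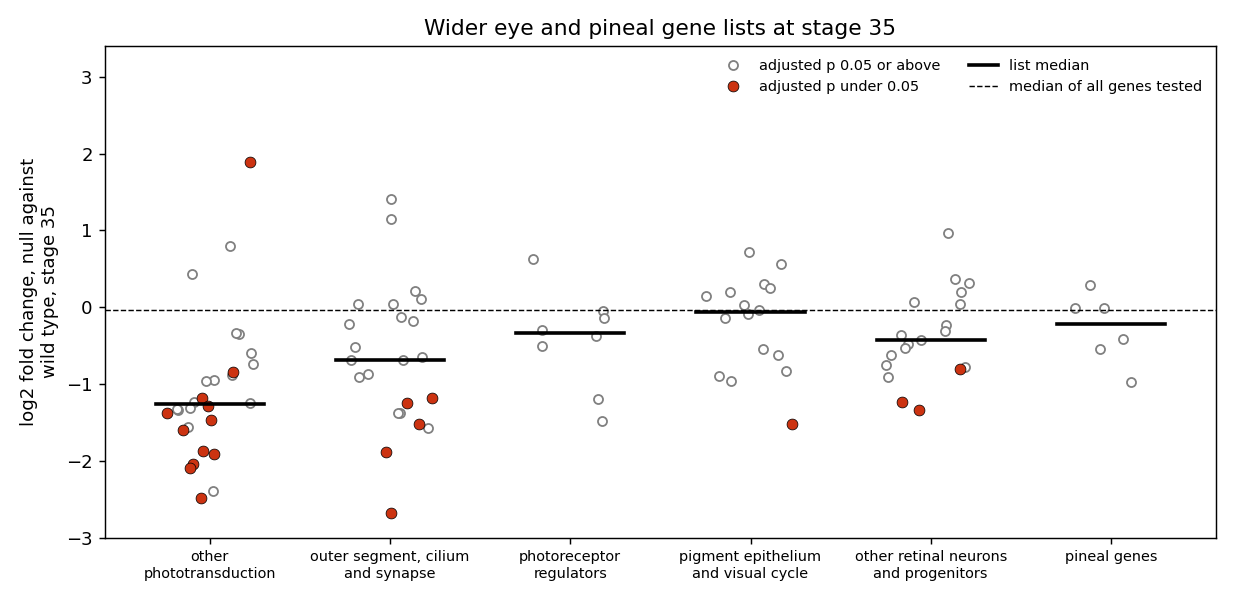
Log2 fold change of every tested gene of 6 eye and pineal lists in stage 35 null against wild type pools, 1 point per gene, filled where the edgeR adjusted p was under 0.05, with the list median as a bar and the median of all genes dashed. The phototransduction genes have the lowest median, at -1.26.

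Of 25 outer segment, cilium and synapse genes of photoreceptors, 23 were tested, and 5 fell and 0 rose against wild type, where 4.95% of all genes were called lower and 4.8% higher. The list's median was -0.69. The disc rim protein gene rom1 was at 5.19 and 6.97 CPM in wild type, 8.95 and 8.36 CPM in heterozygous and 0.413 and 1.52 CPM in null pools, a 6.38-fold fall (edgeR adjusted p = 0.00687). The matrix proteoglycan gene impg2 fell 3.70-fold (edgeR adjusted p = 0.00166), unc119, a carrier of lipidated proteins, 2.38-fold (0.00109), tulp1, a Tubby-like protein gene, 2.87-fold (0.0258), and the phosphodiesterase chaperone aipl1 2.27-fold (0.0251). With 1 pool left out, 2 to 4 of the list were called lower. The call of tulp1 was lost in each case (edgeR adjusted p from 0.0703 to 0.216), that of aipl1 in all but the case without the first wild type pool (0.124 to 0.213 where lost), and that of rom1 without the first null pool (0.0889) or the second wild type pool (0.0727). The heterozygous comparison gave 5 lower and 0 higher, beside 3.65% and 3.34% of all genes, with a median of -0.49.

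Of 8 photoreceptor regulators other than crx and nrl, 0 were called against wild type or heterozygous pools by edgeR. Of all genes, 9.75% and 6.98% were. In each comparison 3 had an unadjusted p under 0.05, beside 4360 and 3745 of the 17742 genes tested. DESeq2's Wald test called 1 lower against wild type and 1 higher against heterozygous pools. It called 2303 and 1734 genes in all. Over 8 genes these counts do not set the regulators apart from other genes. The list's median was -0.34 against wild type. Its summed level was 225 to 250.4 CPM in wild type, 228 to 243 CPM in heterozygous and 220 to 227 CPM in null pools. The null range overlapped that of wild type pools and lay just below that of heterozygous pools. The summed level of the tested phototransduction genes was 1909 to 2453 CPM, 2060 to 2428 CPM and 889.7 to 1141 CPM in that order. Here the null pools did not overlap the others. Null pools were also lowest for the summed outer segment, cilium and synapse genes, at 246 to 268 CPM. Those genes were at 372 to 459 CPM in wild type and 368 to 455 CPM in heterozygous pools. Null pools were likewise lowest, without overlap, for the pigment epithelium, other retinal neuron and pineal lists described below. The separation was thus not particular to phototransduction genes. The sums are also not of photoreceptors alone. The regulators summed to 251 to 276 CPM over the stage 15 pools and 172 to 239 CPM over the stage 25 pools. The phototransduction genes summed to 667 to 883 CPM at stage 15, before most of the set came on.

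Other cell types of the eye were covered by marker lists, but whole-embryo RNA does not show in which tissue the markers were expressed. At stage 15 the pigment epithelium and visual cycle list already summed to 189 to 242 CPM. The list of other retinal neurons and progenitors summed to 634 to 721 CPM there. Of 16 pigment epithelium and visual cycle genes, 1 fell and 0 rose against wild type, near the 4.95% of all genes called lower, with a median of -0.06. The visual cycle isomerase rpe65 fell 2.87-fold against wild type (edgeR adjusted p = 0.00107). Without each pool in turn, its log2 fold change ran from -1.83 to -1.17 against wild type and from -1.45 to -1.07 against heterozygous pools. The list's summed level was 1192 to 1210 CPM in wild type, 1132 to 1177 CPM in heterozygous and 996.7 to 1094 CPM in null pools. Of 19 tested genes of other retinal neurons and progenitors, 3 fell and 0 rose, against the same 4.95%, with a median of -0.43. These were the inhibitory vesicle transporter slc32a1, the bipolar cell channel trpm1 and the eye field factor six3, with log2 fold changes of -1.33, -1.24 and -0.80 (edgeR adjusted p = 0.00583, 0.0151 and 0.0266). With 1 pool left out, 0 to 3 of the list were called lower. slc32a1 lost its call without the first null pool (edgeR adjusted p = 0.0889) or the second wild type pool (0.114), and trpm1 without the second null (0.172) or second wild type pool (0.151). six3 lost its call without either null pool (edgeR adjusted p = 0.120 and 0.171) or without the second wild type pool (0.210). The summed level was 537 to 619 CPM in wild type, 541 to 609 CPM in heterozygous and 446 to 491 CPM in null pools. No tested marker of either list was at 0 in a stage 35 pool. In whole embryos this does not show that the eye cells named were present. The part of these cell types in the photoreceptor values was not tested.

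Of 6 tested pineal genes, 0 were called against wild type by edgeR or by DESeq2, and 0 had an unadjusted p under 0.05. Over all 17742 genes tested, edgeR called 9.75%, and 4360 had an unadjusted p under 0.05. With so few genes, the lack of calls does not show that pineal genes were unchanged. Their summed level was 33.8 to 34.4 CPM in wild type, 36.4 to 37.0 CPM in heterozygous and 26.7 to 27.0 CPM in null pools. The place of the null pools on the first principal component at stage 35, nearer to stage 25 than the other pools, moved with the low photoreceptor values, and its part in them was not tested.

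At stage 25, where edgeR called 0.789% of genes higher and 0.986% lower in null against wild type pools, 1 gene of the 6 wider lists was called. It was trpm1, with a log2 fold change of -1.28 (edgeR adjusted p = 0.0382), and the call was lost when any 1 of the 4 pools was left out (edgeR adjusted p from 0.122 to 0.216). In the test of the difference between the null effects at the 2 stages, 1 listed gene was called, impg2, at 0.818 and 0.983 CPM in stage 25 wild type pools and 2.63 and 1.10 CPM in null pools. Its stage 35 values were 60.0 and 69.2 CPM in wild type and 16.6 and 18.3 CPM in null pools. The null effect was lower at stage 35 by -2.92 on the log2 scale (SE 0.52, edgeR adjusted p = 0.0380). The call was lost without any 1 pool of the groups compared other than the second stage 25 null pool (edgeR adjusted p from 0.0823 to 0.275).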

How the data were processed

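RNA-seq was made from pools of whole embryos. The authors deposited raw counts per gene, 1 table per library, per the file headers. The submitters' processing notes name bcl2fastq 2.20 and STAR; build, annotation, counting program and use of strand are not given in the sources used here, so overlapping or antisense genes cannot be separated. Every row was named for a gene.

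The members and lists were chosen with earlier results of these data known. Genes were kept by filterByExpr (minimum count 10, minimum total 15) over 16 libraries. edgeR 4.0.16 in R 4.3.3 fitted 8 groups by quasi-likelihood with TMM factors over 17 libraries, with 8 residual degrees of freedom and a biological coefficient of variation of 20.7%. P-values were two-sided and adjusted by Benjamini-Hochberg over all tested genes of a comparison. Calls are adjusted p-values under 0.05. Correlations used a prior count of 2. The stage 15 null pool entered no test. Counting intervals are exact and at 95%. Named genes were all members; list genes called in null pools of stage 25 or 35, at most 8 a list by smallest p; the 5 genes most like rp1l1 and the 5 most like sag; and 2 neighbours of rp1l1 on each side. DESeq2 1.42.0 was an alternative, with other scaling, filters, libraries, a replicate block and each pool left out. Of the comparisons, only the edgeR test of stage 35 null against wild type pools was tried on simulated counts. No sequences were used here.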

Additional observations from a re-analysis of the deposited data

Results flagged for a closer look

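rp1l1 stood at 4.27 CPM in the single null pool of stage 15, which enters no comparison. The 4 other pools of that stage were between 1.07 and 1.83 CPM. The counting interval of the null pool was 3.21 to 5.57 CPM, and with 1 pool the spread between null pools of this stage is unknown.

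The null effect on impg2 differed between stages 35 and 25 by -2.92 on the log2 scale in the test of the difference itself (edgeR adjusted p = 0.0380, range over 14 alternatives 1.99e-05 to 0.275). Its level was at most 2.63 CPM in the stage 25 pools compared.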

How the results depend on the processing

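Results were recomputed with other size factors, without the count filter, with all 17 libraries, with a replicate block, with only the stages compared, with DESeq2's Wald test and without each pool in turn. The labels do not say whether pools of the same number were paired across genotypes. Differences between numbered pools correlated between -0.37 and 0.10 across genotypes, which cannot show whether they were. The replicate block gave 1000 called genes in stage 35 null against wild type pools (1730 without it), 652 against heterozygous pools (1239), 69 in stage 25 null against wild type pools (315), 9 for the stage difference (25) and 0 for stage 35 heterozygous pools (1). With the block, trpm1 and six3 lost their stage 35 calls against wild type (edgeR adjusted p = 0.0547 and 0.0618), trpm1 its stage 25 call (0.130) and cngb1 its stage 35 call (0.0569). The call of impg2 for the stage difference was lost too (edgeR adjusted p = 0.0623).

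Leaving out 1 pool gave 379 to 1308, 254 to 520, 0 to 171 and 4 to 42 called genes for the first 4 of these. It gave 0 for stage 35 heterozygous pools, 0 to 369 at stage 15 and 0 to 1 at stage 25. Of photoreceptor genes, 0 to 2 were called lower in each stage 35 null comparison. Without the filter, 60 genes were called in stage 15 heterozygous pools, 1 of them a photoreceptor gene, 15 at stage 25, 2 at stage 35, 584 in stage 25 null pools and 239 for the stage difference. With only the stages compared, these counts were 2 at stage 15, 0 for stage 35 heterozygous pools and 69 for the stage difference, and 1 photoreceptor gene, rp1l1, was called higher in each stage 35 null comparison. With all 17 libraries, 0 genes were called in stage 35 heterozygous pools.

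DESeq2 called 7, 6 and 2 genes in heterozygous pools of stages 15, 25 and 35, 680 in stage 25 null pools and 162 for the stage difference, of which 60.5% were higher, against 80% in edgeR. It called 1 photoreceptor gene lower in each stage 35 null comparison. No result changed its direction past the threshold. The cause of these shifts was not tested. With 2 pools a group, low genes such as pde6b rest on few counts.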
